A study of Mus musculus with 30 samples.

Results

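The axon guidance ligands and receptors described here were the rows of the RNA count table whose gene symbol begins with or equals a name of the semaphorin (Sema3 to Sema7), plexin, neuropilin, Eph receptor, ephrin, slit, robo, netrin, Dcc or Unc5 families. The symbols alone chose them, and no measured value entered. The rule matched 65 of 13752 genes, of which 34 are ligands and 30 are receptors. The remaining match, Unc50, shares only the start of its name with the Unc5 receptors, and it passed the test on none of the days. All 65 passed the filter on low counts, as did 13737 of the 13752 genes. For the RefSeq genes Efna4, Epha2, Ephb4, Ntn5, Plxnb3, Robo3, Sema3g and Unc5cl, whose symbols also match, there was no row, and they were not analysed here.

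The study followed retinal ganglion cells (RGCs), the retinal neurons that send their axons through the optic nerve, after that nerve had been crushed in mice. RGCs were dissociated with papain and sorted by fluorescence, and RNA-seq and ATAC-seq libraries were made. RNA libraries were analysed from cells without crush, called day 0 (3 libraries), and from days 1, 2, 3 and 4 after crush (3, 2, 3 and 2 libraries). Of the 15 labelled RNA samples, 1 of day 2 and 1 of day 4 were not analysed here. ATAC-seq, which counts transposase cuts in open chromatin, covered day 0 (6 libraries), day 1 (3) and day 3 (6). The mice are labelled C57BL/6 apart from 2 day 0 RNA samples, labelled C57BL/7 and C57BL/8. Column headings of the authors' deposited comparisons and footprints call the groups NT or nonTarget. The labels do not explain these terms. The labels give no age or number of animals per library, so the p-values measure the spread between libraries, which may be technical. RNA totals were 19024286 to 27561352 counts and ATAC totals 20006724 to 72579102 counts, over 151630 peaks.

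Semaphorins, ephrins, slits and netrins are cues that steer growing axons. Plexins with their neuropilin co-receptors read semaphorins, Eph receptors read ephrins, robos read slits, and Dcc and the Unc5 proteins read netrins. Many of these cues can repel a growth cone, the Dcc receptor mediates attraction to netrin, and ephrins can also signal back into the cell that carries them. In the developing visual system EphA and EphB receptors on RGC axons order the projection to the brain, while adult RGCs keep many of these genes on.

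The libraries were checked against their labels. All 10 RGC markers (among them Rbpms, Thy1, Slc17a6 and the Pou4f genes) were detected in all 13 RNA libraries, and their summed level was 10279 to 11348 CPM (counts scaled to the size of the library) on day 0, 7446 to 9350 on day 1, 6778 to 7336 on day 2, 7556 to 8127 on day 3 and 6440 to 6737 on day 4. Single RGC markers did not all move with the sum. Rbpms was at 248 to 261 CPM on day 3, against 549 to 605 on day 0. Slc17a6 went the other way, at 1548 to 1808 CPM on day 3, against 1208 to 1412 on day 0. The 6 markers of microglia and macrophages summed to 23.5 to 46.3 CPM on day 0, 35.1 to 158 on day 1, 94.0 to 112 on day 2, 13.9 to 23.6 on day 3 and 65.1 to 108 on day 4. The 5 markers of amacrine and horizontal cells in the table (of 7) summed to 69.8 to 271 CPM on day 0, 182 to 226 on day 1, 306 to 391 on day 2, 213 to 303 on day 3 and 239 to 267 on day 4. In sorted bulk samples, fewer cells of a type and less RNA per cell cannot be told apart, and the part of these shifts in the results was not tested. The description field of several ATAC samples names a file of another day, so ATAC samples were placed by title and treatment, which match each other.

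A further disagreement concerns the day 3 and day 2 RNA results. In the authors' deposited table of RNA comparisons, the log2 fold changes headed day 3 followed the day 2 comparison computed from the counts (Pearson r = 0.999989 across 13737 genes) rather than the day 3 comparison (r = 0.648). Those headed day 1 followed day 1 (r = 0.999974). For Sema3c the authors' deposited table gives a log2 fold change of 4.38 under the day 3 heading. Here it was 4.44 for the count columns named day 2 and 7.22 for those named day 3. The authors' deposited correlations of promoter peaks with RNA hold 9 RNA columns. Across 6497 genes, each of the 9 was best matched by the count column of the same name. Whether the heading or the count columns carry the other day is not settled by the sources used here, and the days below are those of the count columns. For ATAC, the log2 fold changes that the authors' deposited table heads day 3 followed the day 3 comparison computed here (r = 0.98 across 151630 peaks), and those headed day 1 followed the day 1 comparison less closely (r = 0.792).

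The first question was how many guidance genes changed after crush. On day 3 after crush, 45 of the 65 guidance genes differed from day 0 in edgeR's quasi-likelihood test with an adjusted p under 0.05, 12 higher and 33 lower. Over all 13737 genes tested, 40.5% were called on day 3, 20.4% higher and 20.1% lower. The day 3 median log2 fold change was -0.57 for the guidance genes and 0.03 for all genes. The count was lower on the earlier days: 12 were called on day 1 (2 higher, 10 lower), when 11.4% of all genes were called (5.93% higher, 5.45% lower), and 27 on day 2 (7 higher, 20 lower), when 29.3% were (14.8% higher, 14.5% lower). On day 4, 41 were called (9 higher, 32 lower), against 38.9% of all genes (19.8% higher, 19% lower). On day 3 against day 1, 6 were higher and 26 lower, while 33.5% of all genes were called (16.1% higher, 17.5% lower). In 1 test over days 1 to 4 together, 41 of the 65 were called, beside 47.1% of all genes. Scaled by library size only, the day 2 split was 9 higher and 14 lower. The day 2 count fell to 14 when day 2 replicate 2 was left out, and the day 1 count to 7 without day 1 replicate 2. At a false discovery rate under 0.05, the authors' deposited table calls fewer guidance genes. It calls 7 under its day 1 heading and 18 under its day 3 heading, which followed day 2. All 7 were called in the same direction here on day 1, and all 18 on day 2.

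Among ligands and among receptors alike, more genes were lower than higher. On day 3, 6 ligands rose and 17 fell (of 34, median log2 fold change -0.65), and 6 receptors rose and 16 fell (of 30, median -0.54). Called lower on all 4 days were 8 genes, beside 3.5% of all genes: Epha5, Epha6, Epha7, Nrp2, Robo2, Sema5b, Sema7a and Unc5a. Epha5, Epha6, Robo2 and Sema7a kept these calls against day 0 under all alternatives run. The others each lost the call of at least 1 day when a single library was left out. Sema5b lost it on day 1 without day 0 replicate 3 (log2 fold change -0.78, adjusted p = 0.119) and on day 2 without day 2 replicate 2 (-1.22, adjusted p = 0.0720). Unc5a lost it on day 1 without day 0 replicate 3 (-0.40, adjusted p = 0.0853). Epha7 lost it on day 1 without day 1 replicate 3 (-0.54, adjusted p = 0.131), on day 2 without day 2 replicate 2 (-0.41, adjusted p = 0.314) and on day 4 without day 4 replicate 2 (-0.35, adjusted p = 0.319). Nrp2 lost it on day 4 without day 4 replicate 3 (-0.52, adjusted p = 0.0593). Under the day 1 heading of the authors' deposited table, the false discovery rate was 0.0563 for Robo2 and 0.161 for Unc5a. It was 0.144 for Epha7 and 0.217 for Sema5b, and under 0.05 for Epha5, Epha6, Nrp2 and Sema7a. Called higher on all 4 days were Sema3c and Robo4, beside 3.81% of all genes. With only the groups compared in the fit, Sema3c did not pass on day 1 (adjusted p = 0.322) and Robo4 fell below the filter on low counts on days 1 and 3. Plxnc1, a plexin that binds Sema7a, was the 1 gene called in both directions, with a log2 fold change of 0.32 on day 2 and -0.56 on day 3. Its day 2 call was lost in 10 alternatives, for example without day 0 replicate 1 (0.20, adjusted p = 0.196). In all, 35 of the 65 genes (53.8%) fell on at least 1 day without rising on another, beside 25.7% of all genes. A further 12 (18.5%) rose without falling, beside 26.6%, and 17 (26.2%) passed the test on none of the days, beside 46.7%. Summed over the 65 genes, the level was 4153 ± 144 CPM on day 3, against 4872 ± 158 CPM on day 0 (SD, n = 3 each).

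**Figure D1:**
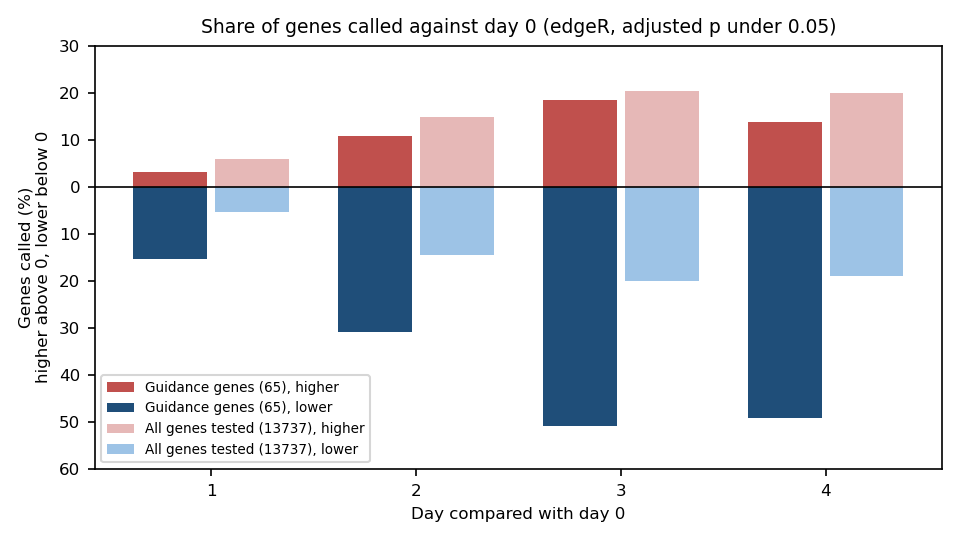
Share of genes called higher or lower (percent, edgeR adjusted p under 0.05) on each day against day 0, for the 65 guidance genes and for all 13737 genes tested. On day 3 the guidance genes had 12 higher and 33 lower, while 20.4% of all genes were higher and 20.1% lower.

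**Figure D2:**
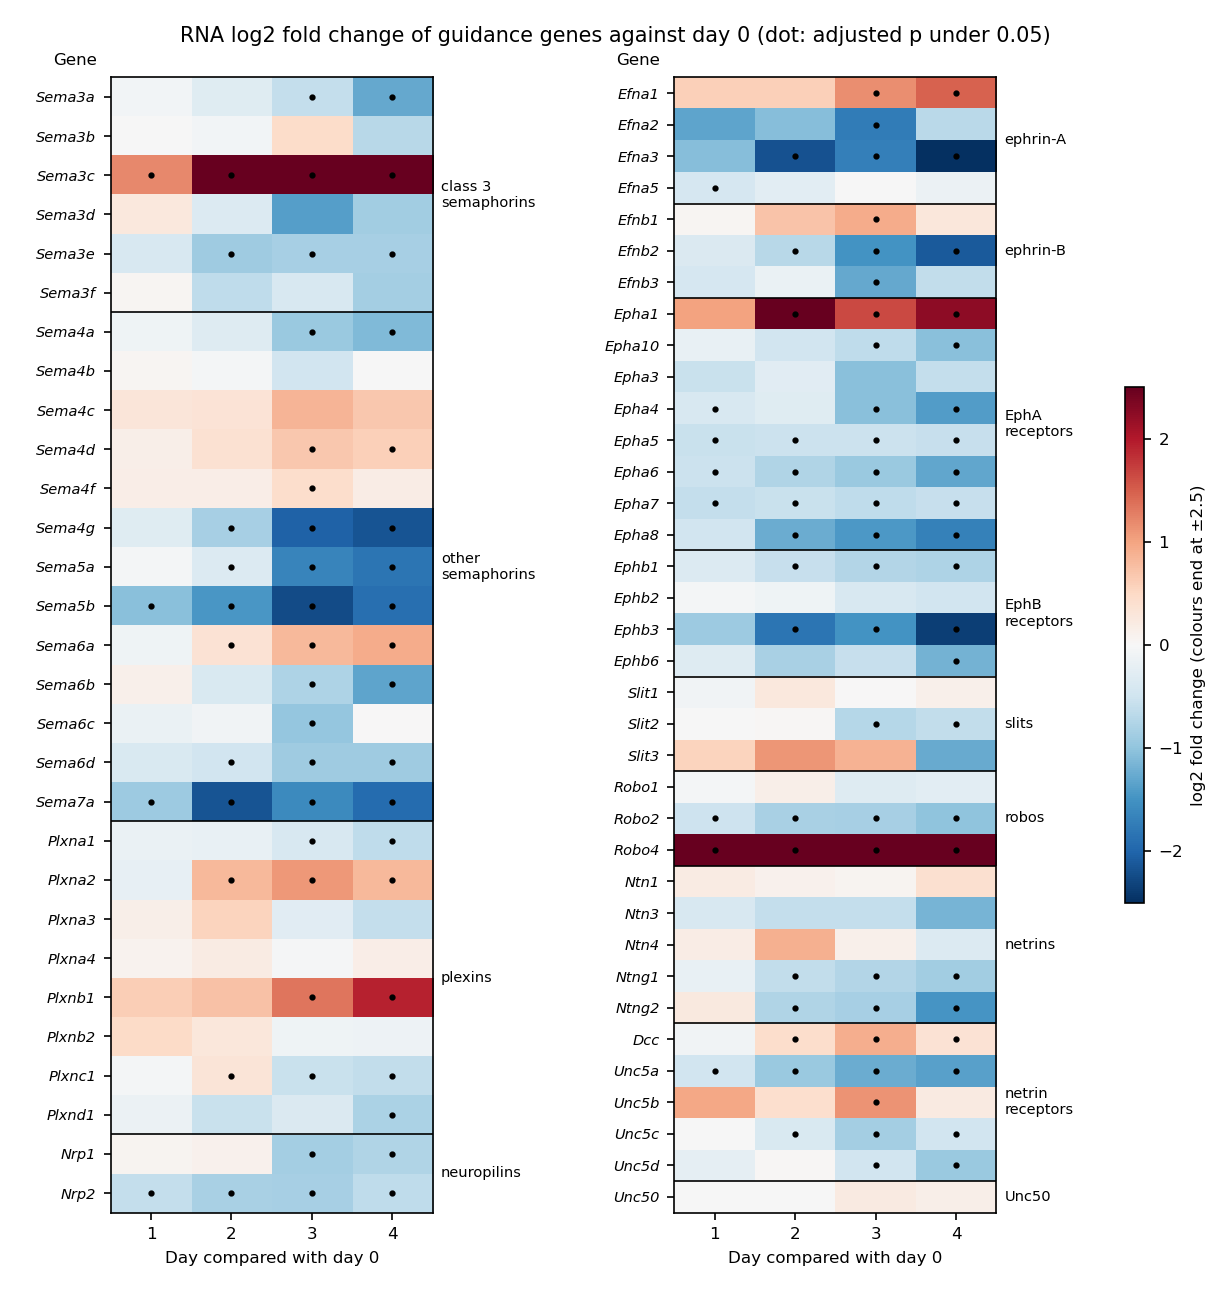
Log2 fold change of each guidance gene on days 1 to 4 against day 0, grouped by family, with a dot where the adjusted p was under 0.05. Colours end at 2.5 in either direction, so the values of Sema3c on days 2 to 4, of Robo4 on all 4 days and of Epha1 on day 2 lie beyond the scale. Blue or red marks the direction, and most EphA, neuropilin and class 4 to 7 semaphorin rows are lower by day 3.

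Class 3 semaphorins are secreted ligands that act through neuropilins and class A plexins. Sema3c had the largest fitted log2 fold change on day 3 among the 64 guidance genes that had counts on day 0. It lies on chromosome 5, plus strand, at 17574281 to 17730268 (mm10). Its level was 0.595, 0.302 and 0.389 CPM on day 0, 1.23, 1.15 and 0.555 CPM on day 1, 7.99 and 10.4 CPM on day 2, 64.4, 64.4 and 61.1 CPM on day 3, and 54.7 and 66.5 CPM on day 4. Every library of days 2, 3 and 4 was above every library of days 0 and 1, and the libraries of day 1 and day 0 overlapped. The log2 fold change against day 0 was 4.44 ± 0.28 (SE) on day 2, 7.22 ± 0.27 on day 3 (adjusted p = 4.8e-12) and 7.16 ± 0.28 on day 4. That is 149-fold on day 3, and the values of days 3 and 4 overlapped. On day 1 the log2 fold change was 1.21 ± 0.33 with an adjusted p of 0.0272, a call that was lost in 6 alternatives, for example without day 0 replicate 2 (adjusted p = 0.112).

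The RefSeq promoter window of Sema3c is shown because an ATAC peak described further on covers it. It runs from before the transcript start given by RefSeq to just past it, and that start lies inside the gene as placed above, downstream of the start from which peak distances are given below. It holds none of the 4 motifs searched, so it has no capitals.

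Sema3c promoter, GRCm38.p6, chr5:17574566-17574865, plus strand: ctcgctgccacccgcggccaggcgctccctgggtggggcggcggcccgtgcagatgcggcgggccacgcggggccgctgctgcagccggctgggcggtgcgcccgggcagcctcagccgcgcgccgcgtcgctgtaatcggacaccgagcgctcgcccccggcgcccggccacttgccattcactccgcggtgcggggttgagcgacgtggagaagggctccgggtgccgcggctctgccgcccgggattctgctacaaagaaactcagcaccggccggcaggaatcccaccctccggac

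Other class 3 members moved the other way or not at all. Sema3a, which collapses growth cones through neuropilin-1, was at 73.3, 72.8 and 83.5 CPM on day 3 and 47.2 and 47.8 CPM on day 4, against 106, 124 and 117 CPM on day 0. Both crush days lay below day 0 without overlap, with log2 fold changes of -0.60 ± 0.10 on day 3 and -1.28 ± 0.12 on day 4. Sema3e, which unlike its relatives binds Plxnd1 directly, had 161, 126 and 122 CPM on day 3, against 296, 203 and 228 CPM on day 0, a log2 fold change of -0.83 ± 0.13. Sema3b, Sema3d and Sema3f, at 0.436 to 4.49 CPM on day 3, did not pass the test on day 3 or day 4.

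Semaphorins of classes 4 to 7 are anchored in the membrane, and 11 of the 13 passed the test on day 3, with Sema4d, Sema4f and Sema6a higher and 8 lower. Sema6a, a ligand of Plxna2 and Plxna4, had 827, 917 and 858 CPM on day 3 and 950.3 and 929.8 CPM on day 4, against 573, 413 and 489.8 CPM on day 0. All libraries of both days exceeded those of day 0, with log2 fold changes of 0.82 ± 0.11 and 0.93 ± 0.12. Sema4d, the ligand of Plxnb1, had 58.5, 56.3 and 68.9 CPM on day 3, against 44.4, 32.7 and 37.6 CPM on day 0, and rose by 0.68 ± 0.14 on the log2 scale.

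Sema5a, which can act in both attraction and repulsion, had 297, 317 and 379.9 CPM on day 0, 322, 350.4 and 294 CPM on day 1, 278 and 246 CPM on day 2, 117, 107 and 95.0 CPM on day 3, and 97.6 and 88.3 CPM on day 4. The day 1 libraries overlapped those of day 0 and the day 3 and day 4 libraries were far below them, with log2 fold changes of -1.64 ± 0.11 (adjusted p = 2.7e-09) and -1.83 ± 0.13. Sema4g was lower as well, at 12.1, 12.8 and 8.27 CPM on day 3, against 51.7, 38.4 and 45.1 CPM on day 0 (log2 fold change -2.03 ± 0.18). Sema7a, a GPI-anchored semaphorin, was already lower on day 1. Its 37.7, 46.3 and 42.0 CPM on day 1 and 17.1 and 17.8 CPM on day 2 lay below the 68.0, 88.5 and 78.5 CPM of day 0, with log2 fold changes of -0.90 ± 0.15 and -2.17 ± 0.18. The day 3 and day 4 values for Sema7a were -1.58 ± 0.15 and -1.93 ± 0.18. Sema5b, Sema6b, Sema6c, Sema6d and Sema4a were also lower on day 3, by 0.78 to 2.24 on the log2 scale. Sema6c was not lower on day 4, where its log2 fold change was 0.00 ± 0.29.

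**Figure D3:**
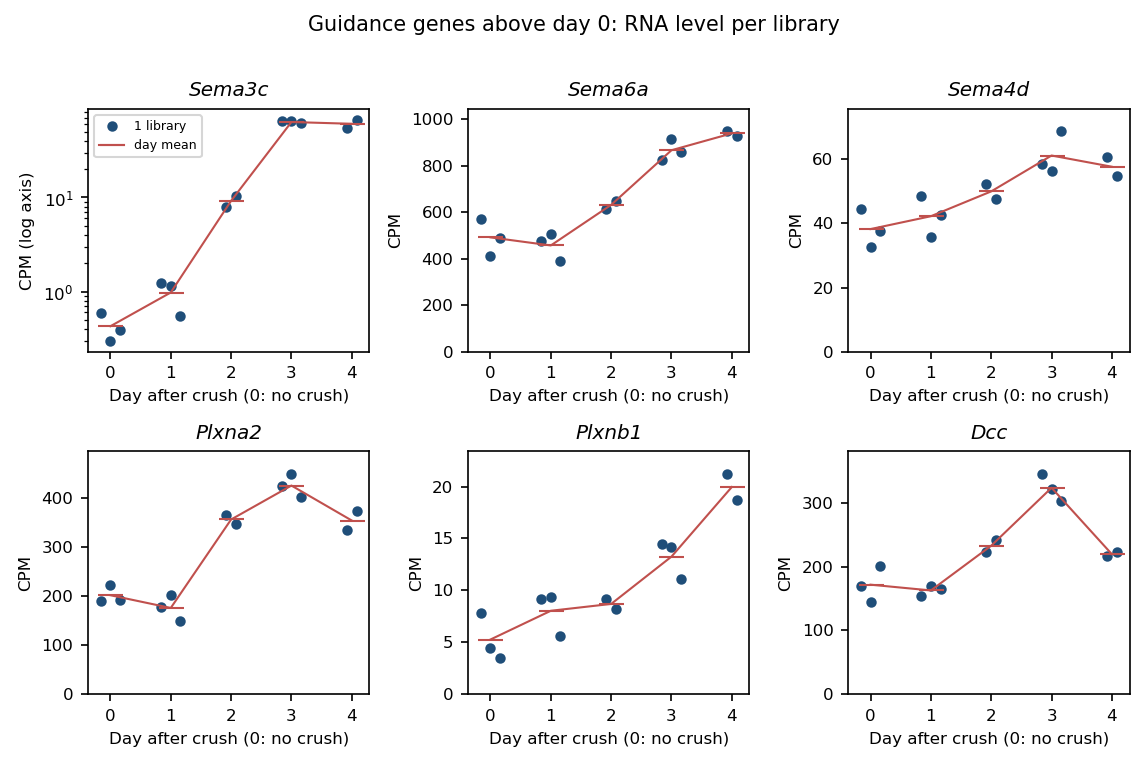
Level in CPM of 6 guidance genes that rose on day 3, for each library by day, with a line through the day means. The axis of Sema3c is logarithmic and the others are linear. Sema3c sits at 61.1 to 64.4 CPM on day 3 and below 1 CPM in every day 0 library.

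Among the plexins, the receptors of semaphorins, 2 of 8 rose and 2 fell on day 3, and their summed level was 686 ± 28.9 CPM on day 3, against 529 ± 34.1 CPM on day 0 (SD, n = 3 each). Without Plxna2 the other 7 summed to 260 ± 13.9 CPM on day 3, against 327 ± 20.6 CPM on day 0. Plxna2 (chromosome 1, 194618218 to 194816869), a receptor for class 6 semaphorins, had 191, 223 and 191 CPM on day 0, 177, 202 and 149 CPM on day 1, 365 and 348 CPM on day 2, 426, 451 and 402 CPM on day 3, and 336 and 374 CPM on day 4. Day 1 overlapped day 0, and every library from day 2 on was higher than all of day 0, with a log2 fold change of 1.08 ± 0.10 on day 3 (adjusted p = 2.2e-07). Plxnb1 had 14.5, 14.1 and 11.1 CPM on day 3 and 21.3 and 18.7 CPM on day 4, against 7.79, 4.49 and 3.50 CPM on day 0. It rose by 1.34 ± 0.28 and 1.93 ± 0.30 on the log2 scale without overlap. Plxna1 and Plxnc1 were lower on day 3, by 0.41 and 0.56 on the log2 scale. Plxna4 (log2 fold change -0.03 ± 0.17), Plxnb2 (-0.10 ± 0.20), Plxna3 and Plxnd1 did not pass the test on day 3.

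Both neuropilins were lower on days 3 and 4. Nrp1, the co-receptor for Sema3a, had 58.2, 70.3 and 78.2 CPM on day 0, 73.5, 70.9 and 72.9 CPM on day 1, 78.6 and 69.1 CPM on day 2, 34.3, 39.9 and 40.3 CPM on day 3, and 39.9 and 42.1 CPM on day 4. The libraries of the first pair of crush days overlapped day 0, and those of days 3 and 4 lay below it, with log2 fold changes of -0.85 ± 0.12 and -0.75 ± 0.13. Nrp2, which binds Sema3f and also Sema3c, was already lower on day 1, at 119, 113 and 109 CPM against 145, 196 and 176 CPM on day 0, a log2 fold change of -0.60 ± 0.13. On day 3 its log2 fold change was -0.84 ± 0.13. The day 4 value of Nrp2, -0.63, did not pass without day 4 replicate 3 (adjusted p = 0.0593).

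Ephrins are the membrane-bound ligands of Eph receptors. Efnb2, which can also signal into the cell that carries it, had 103, 106 and 99.7 CPM on day 0, 85.3, 82.1 and 73.1 CPM on day 1, 68.7 and 58.2 CPM on day 2, 45.9, 36.8 and 27.3 CPM on day 3, and 16.3 and 32.0 CPM on day 4. No crush library reached a day 0 library, and the log2 fold change was -1.49 ± 0.20 on day 3 (adjusted p = 1.2e-05) and -2.09 ± 0.24 on day 4. On day 2 it was -0.69, which did not pass without either day 2 library. Efna3 had 1.85, 2.05 and 2.00 CPM on day 3, against 6.44, 5.66 and 7.12 CPM on day 0, and fell by 1.70 on the log2 scale. Efna5, an ephrin that patterns the retinal map, had 107, 121 and 118 CPM on day 3, against 131, 102 and 112 CPM on day 0, with overlapping libraries and a log2 fold change of 0.00 ± 0.12. Efnb1 was higher and Efnb3 lower on day 3, at 8.93 to 13.8 CPM and 1.43 to 2.46 CPM, against 4.16 to 9.20 CPM and 2.26 to 5.90 CPM on day 0. Both overlapped day 0, with an adjusted p of 0.0398 for Efnb1 and 0.0271 for Efnb3, and without day 0 replicate 1 it was 0.125 and 0.100. The day 3 call of Efna2 rested on 1 library: day 0 replicate 3 was at 15.7 CPM beside 3.03 and 2.89 CPM, and without it the log2 fold change of -1.75 became -0.48 (adjusted p = 0.463). Efna1 was called higher on day 3, with a log2 fold change of 1.17 ± 0.41, a call lost in 6 alternatives, for example without day 3 replicate 3 (adjusted p = 0.147).

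Of the 8 EphA receptors, 6 were lower and 1 was higher on day 3. The summed EphA level was 365 ± 20.9 CPM on day 3, against 628 ± 33.2 CPM on day 0 (SD, n = 3 each). Epha5 was lower from day 1, at 182, 159.6 and 149 CPM against 234, 253 and 238 CPM on day 0 (log2 fold change -0.56 ± 0.09), and its log2 fold change stayed between -0.58 and -0.53 on days 2 to 4. Epha6 was lower on each crush day, with 57.4, 59.5 and 52.9 CPM on day 1, 49.1, 37.1 and 42.5 CPM on day 3 and 31.5 and 35.1 CPM on day 4, all below the 86.1, 82.5 and 77.3 CPM of day 0. Epha4, which binds ephrins of both classes and can limit axon growth, had 125, 119 and 96.8 CPM on day 3, against 204, 254 and 244 CPM on day 0. Those libraries did not overlap, and the log2 fold changes were -1.04 ± 0.10 on day 3 (adjusted p = 4.2e-07) and -1.40 ± 0.12 on day 4. Epha7, Epha8 and Epha10 were lower on day 3 by 0.64, 1.43 and 0.64 on the log2 scale, and the Epha10 call was lost in 4 alternatives, for example without day 0 replicate 2 (adjusted p = 0.124).

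Epha1 was the EphA receptor called higher. It had 2.10, 1.79 and 1.80 CPM on day 3, against 1.14, 0.302 and 0.389 CPM on day 0, a log2 fold change of 1.66 ± 0.53 that did not pass without day 0 replicate 2 (1.32, adjusted p = 0.0794). Epha1 overlaps Zyx on the opposite strand, at a mean of 98.6 CPM, and the library kit does not mark strand, so reads of the pair cannot be told apart. Among the EphB receptors, which read ephrin-B ligands, Ephb1 was lower by a log2 fold change of -0.73 and Ephb3 was 2.83-fold lower on day 3. Ephb3 had 2.73, 3.75 and 3.26 CPM on day 3, against 7.20, 8.81 and 11.5 CPM on day 0, with no overlap. Ephb2 (-0.41 ± 0.17) and Ephb6 (-0.57 ± 0.31) did not pass on day 3.

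**Figure D4:**
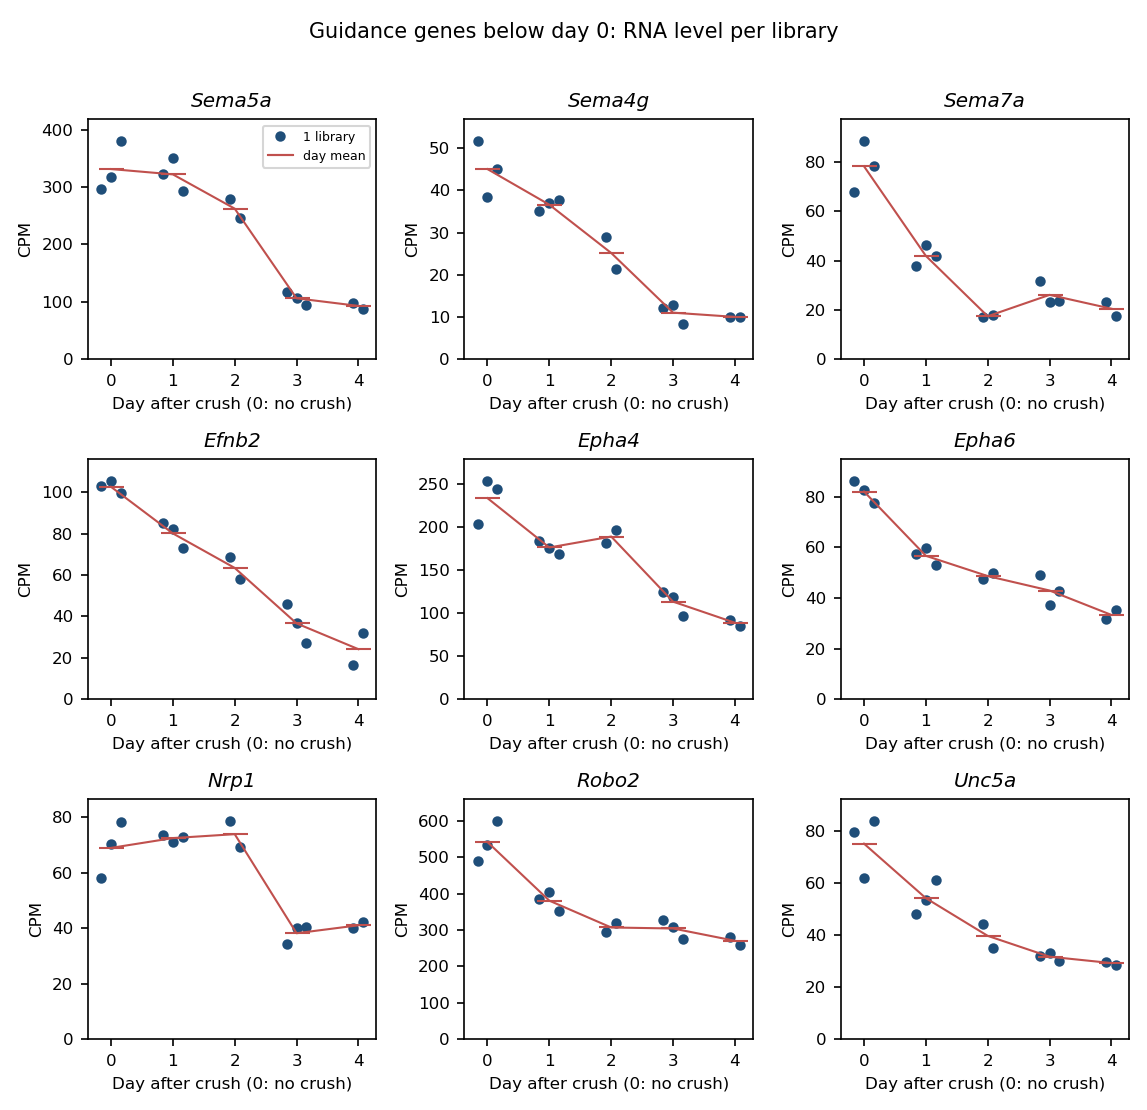
Level in CPM of 9 guidance genes that fell, for each library by day, with a line through the day means. Sema5a and Nrp1 sit with day 0 on day 1 and below it on day 3, whereas Sema7a, Epha6 and Robo2 are below day 0 in every day 1 library.

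Slits repel axons through robo receptors. Robo2 (chromosome 16, 73891839 to 74411825, minus strand) had 490.4, 534 and 599.5 CPM on day 0, 386, 404 and 351 CPM on day 1, 296 and 318 CPM on day 2, 328, 309 and 275 CPM on day 3, and 281 and 259 CPM on day 4. Every crush library was below every day 0 library, with a log2 fold change of -0.51 ± 0.09 on day 1 and -0.83 ± 0.09 on day 3 (adjusted p = 1.1e-06). Slit2, a ligand of Robo2, had 120.1, 92.5 and 87.5 CPM on day 3, against 158, 162 and 169 CPM on day 0, a log2 fold change of -0.70 ± 0.10. Slit1, Slit3 and Robo1 passed the test on none of the days. Robo4, a robo of endothelial cells, had 0.0418 to 0.567 CPM on day 3, against no counts in any day 0 library. With 3 counts per day 0 library as the floor for a count of 0 (a mean of 0.136 CPM), the mean was at least 2.83-fold higher on day 3 and at least 11.3-fold higher on day 2. The lowest day 3 library lay below that floor. The endothelial markers in the table, Kdr and Tek, summed to 2.23 to 3.65 CPM on day 3 and to 2.48 to 4.42 CPM on day 2, against 3.84 to 8.42 CPM on day 0.

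All 5 netrin receptors changed on day 3, 2 higher and 3 lower. Dcc, which mediates attraction to netrin-1, had 346, 321 and 303 CPM on day 3, against 169.8, 145 and 200.2 CPM on day 0, a log2 fold change of 0.91 ± 0.10 (adjusted p = 1.4e-06) without overlap. On day 4 it was at 216 and 222 CPM, and the call was lost in 6 alternatives, with an adjusted p of 0.112 without day 0 replicate 2. Unc5a, a receptor for repulsion by netrin, had 31.8, 32.9 and 30.1 CPM on day 3, against 79.3, 61.9 and 83.7 CPM on day 0, and fell by 1.25 ± 0.14 on the log2 scale. Unc5c and Unc5d fell by 0.86 and 0.47. Unc5b was called higher at 3.26 to 7.68 CPM, against 2.16 to 2.54 CPM, but the call, with a log2 fold change of 1.13 ± 0.41, was lost in 6 alternatives. Among the ligands, Ntng1, a membrane-bound netrin-G, had 120.4, 106 and 109.9 CPM on day 3, against 175, 192 and 190.2 CPM on day 0 (log2 fold change -0.73 ± 0.09). Ntng2 was lower on day 3, by 0.83 on the log2 scale, which did not pass without day 0 replicate 1 (adjusted p = 0.0593). Ntn1, Ntn3 and Ntn4, at 0.503 to 3.86 CPM on day 3, did not pass on any day, and Ntn3 overlaps Tbc1d24 on the same strand.

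A list of 57 guidance partner and effector genes, among them co-receptors, adaptors and downstream enzymes of these receptors, moved in both directions. On day 3, 14 were higher and 19 lower, while 40.5% of all genes were called. The median log2 fold change of the list was -0.15, beside 0.03 for all genes. Scaled by library size only, 18 were higher and 14 lower. Chn1, whose product chimaerin turns Rac down behind EphA4, had 145, 134 and 141 CPM on day 3, against 545, 523 and 546 CPM on day 0, a log2 fold change of -1.94 ± 0.07. Flrt3 and Flrt2, membrane proteins that bind Unc5 receptors, went opposite ways. Flrt3 had 259, 235 and 238 CPM on day 3, against 57.6, 49.1 and 52.1 CPM on day 0 (2.21 ± 0.08). Flrt2 had 58.5, 49.4 and 46.4 CPM on day 3, against 197, 167 and 193 CPM on day 0 (-1.85 ± 0.11). Nrcam, a cell adhesion partner of neuropilins, and Dpysl2 and Dpysl5, collapsin response mediators, fell by 1.16, 0.90 and 1.17 on the log2 scale on day 3, as did Flrt1 by 1.13. Trio and Arhgef12, exchange factors that act behind Dcc and plexin-B, and the actin enzyme Mical2 rose by 0.61, 0.50 and 0.82.

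The next question was whether chromatin near Sema3c opened. The authors' annotation gives 3 ATAC peaks to Sema3c, all on chromosome 5 (mm10): one of 185 bases at 17545117 to 17545301, 28980 bases upstream of the start, one of 523 bases at 17556084 to 17556606, 17675 bases upstream, and one of 1499 bases at 17573634 to 17575132 over the start itself. The middle peak, in intergenic sequence, had 2.85, 3.66, 3.44, 3.11, 3.67 and 5.36 CPM on day 3, against 1.14, 1.23, 1.32, 1.88, 1.52 and 2.62 CPM on day 0. All day 3 libraries were above all day 0 libraries, and the log2 fold change was 1.23 ± 0.18 with an adjusted p of 3.41e-05 in edgeR's test with the authors' batch as a term. Of all peaks, 23.8% were called on day 3, 16.4% higher and 7.39% lower. The rise held within both batches: batch 1 averaged 4.04 CPM on day 3 and 2.01 CPM on day 0, and batch 2 averaged 3.32 CPM on day 3 and 1.23 CPM on day 0. On day 1, when all 3 libraries were of batch 2, the peak had 1.77, 1.06 and 2.05 CPM, against 1.14, 1.23 and 1.32 CPM in the day 0 libraries of that batch. These overlapped, and the log2 fold change was 0.28 ± 0.25 (adjusted p = 0.487). For this peak the authors' deposited table gives a log2 fold change of 1.00 on day 3 (adjusted p = 0.00853).

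The other Sema3c peaks did not pass the test on day 3. The peak over the start had a log2 fold change of 0.35 ± 0.16 (adjusted p = 0.111), and 0.56 (adjusted p = 0.0345) in batch 2 alone against 0.07 in batch 1 alone. The peak 28980 bases upstream had -0.51 ± 0.21 (adjusted p = 0.0825). The share of reads in peaks moved with the days, at 0.157 to 0.186 on day 1 and 0.173 to 0.456 on day 3, against 0.322 to 0.496 on day 0, and with that share as a term in the fit the peak 17675 bases upstream kept a log2 fold change of 1.19 (adjusted p = 0.000317).

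**Figure D5:**
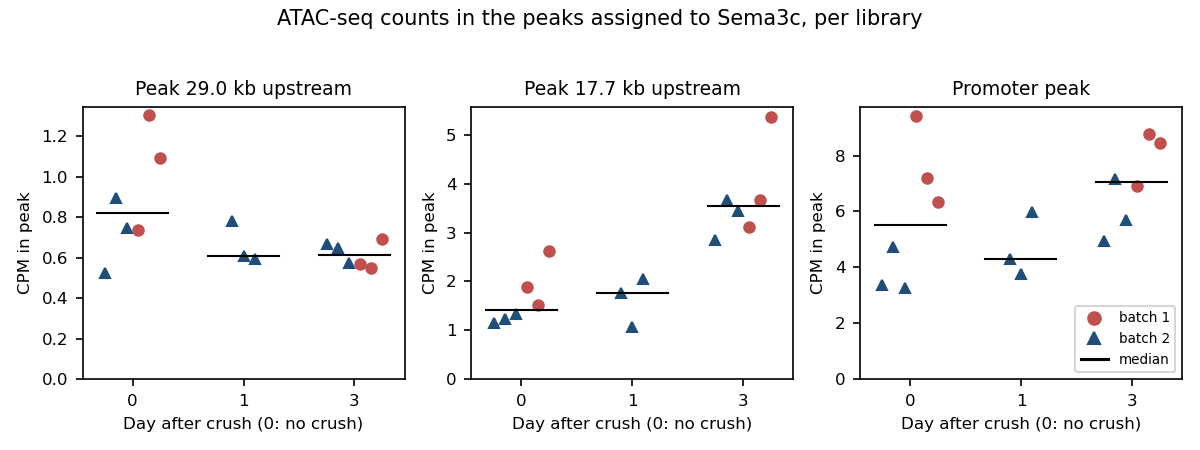
Accessibility in CPM of the 3 Sema3c peaks in each ATAC library on days 0, 1 and 3, with circles for batch 1, triangles for batch 2 and a line at the day's median. In the peak 17675 bases upstream the day 3 libraries sit between 2.85 and 5.36 CPM, above all day 0 libraries.

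The same peak holds the Sema3c entry in the authors' deposited table of ATF3 footprints, at 17556373 to 17556381. ATF3 is a transcription factor that binds AP-1 and CRE-like sites and is known to be induced in injured neurons. Its footprint score there was 0.144 on day 0, 0.347 on day 1 and 0.478 on day 3, and the authors' table calls it unbound on day 0 and bound on days 1 and 3. The day 3 score was above 86.6% of the 20364 ATF3 sites, whose medians were 0.109, 0.176 and 0.194 on days 0, 1 and 3. The tables give 1 score per site and day, so these scores have no replicate check. All guidance gene sites listed there scored higher on days 1 and 3 than on day 0. A rise may have been a condition for listing, so the rise at Sema3c is given as a description only. There was no Sema3c entry among the ATF4, CEBPG and DDIT3 footprints. Across the guidance genes, 59 of 74 ATF3 sites were called bound on day 3 and 19 on day 0, which is 79.7% and 25.7%, beside 81.5% and 32.6% of all ATF3 sites. The guidance genes' share was thus near that of all sites on day 3. The rise in both shares from day 0 may likewise be fixed by which sites were listed. Among guidance genes, the highest day 3 ATF3 score was 1.34, at a site 340 bases upstream of the Plxnd1 start.

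In the authors' deposited tables of correlations between ATAC peaks and RNA, over 9 libraries of each assay, the Sema3c upstream peak and Sema3c RNA had a coefficient of 0.802, above 96.5% of 169469 pairs of distal peaks and genes. The promoter peak had 0.541, above 69.0% of 6882 pairs. The libraries span the same days, so a shared course over days enters each coefficient, and they are given as a description. The median over guidance genes was 0.382 for distal pairs and 0.457 for promoter pairs, beside 0.318 and 0.373 for all genes.

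At the promoters of the guidance genes as a whole, accessibility on day 3 was called changed about as often as at all promoters. There were 162 promoter peaks at 58 guidance genes, and 30 of them (18.5%) differed on day 3, 17 higher and 13 lower. Of all promoter peaks, 19% were called on day 3, 10.1% higher and 8.97% lower. With DESeq2's size factors the split was 17 higher and 17 lower, and with a lowess curve per library it was 24 and 12. Without a batch term, 6 were called, in batch 1 alone 1, and in batch 2 alone 50. The calls at all promoter peaks, 3966 higher and 3534 lower with the batch term, moved too. They were 1460 higher and 930 lower without a batch term, 785 and 169 in batch 1 alone, and 4535 and 6577 in batch 2 alone. On day 1, 2 promoter peaks were called higher and 3 lower (3.09%), beside 9.43% of all promoter peaks (2.52% higher, 6.9% lower), and none without day 1 replicate 3.

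Promoter peaks went with the RNA at some genes and against it at others. Of the 77 promoter peaks at genes with lower RNA on day 3, 6 were higher (7.79%) and 9 lower (11.7%). Of the 34 at genes with higher RNA, 4 were higher (11.8%) and 3 lower (8.82%). These shares were near those of all promoter peaks, 10.1% higher and 8.97% lower. Of the 51 at genes without an RNA call, 7 were higher and 1 lower. Sema7a and Unc5a, both lower in RNA, also had a lower promoter peak. The Sema7a peak on chromosome 9, 57938640 to 57954300, averaged 64.5 CPM on day 3 and 86.5 CPM on day 0 in batch 1, and 50.2 CPM on day 3 and 83.7 CPM on day 0 in batch 2, a log2 fold change of -0.58 ± 0.10. The Unc5a peak had -0.70 ± 0.13. The calls of both peaks were lost in batch 1 alone.

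At other genes RNA and promoter peak went opposite ways. At Efnb2, whose RNA fell, a peak at chromosome 8, 8639312 to 8640605, averaged 16.7 CPM on day 3 and 9.18 CPM on day 0 in batch 1, and 11.5 CPM on day 3 and 2.22 CPM on day 0 in batch 2. The log2 fold change was 1.59 ± 0.24 (adjusted p = 5.2e-05), a call lost without the batch term (1.32, adjusted p = 0.0544). This peak is annotated to a start inside the gene, and the peak over the gene's outer start, at 8656422 to 8662604, had a log2 fold change of 0.03 ± 0.10. Sema3e had lower RNA and a higher promoter peak (1.06 ± 0.19), and Sema4f had higher RNA and a lower promoter peak (-0.64 ± 0.12). The calls at Sema3e and Sema4f were lost without the batch term (0.93, adjusted p = 0.0588, and -0.58, adjusted p = 0.171) and in batch 1 alone (0.53, adjusted p = 0.0850, and -0.43, adjusted p = 0.184).

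Outside promoters, 136 of 537 guidance gene peaks (25.3%) were called on day 3, 107 higher and 29 lower, beside 25.5% of all such peaks, of which 18.7% were higher and 6.83% lower. With a lowess curve per library the split was 90 higher and 48 lower. Of the 253 peaks near genes with lower RNA, 49 were higher (19.4%) and 14 lower (5.53%), near the shares of all such peaks. Near genes with higher RNA, 21.4% were higher and 3.88% lower, and without an RNA call 19.9% and 6.08%. Sema5a, whose RNA fell, had 16 of 28 peaks higher and none lower on day 3, of which 5 were called without the batch term and none in batch 1 alone. Sema6a, whose RNA rose, had 14 of 31 peaks higher and none lower, of which 7 were called without the batch term and 2 in batch 1 alone. Robo1, singled out like Sema5a and Sema6a after the values were seen and with no RNA call, had 11 of 26 higher and none lower, of which 3 were called in batch 1 alone. Over all peaks, in promoters or not, 36123 were called on day 3 with the batch term. Without that term 14466 were called, and in batch 1 alone 7162. Among single peaks of guidance genes, those with the smallest adjusted p on day 3 were a Robo1 intron peak at chromosome 16, 72896903 to 72897533 (log2 fold change 2.33 ± 0.20), a Sema3e peak 50331 bases upstream (2.39 ± 0.25), a Plxna2 peak 43743 bases upstream (1.68 ± 0.18) and an Nrp1 intron peak (1.97 ± 0.22). On day 1, 51 peaks outside promoters were called, 50 of them higher, beside 7.28% of all such peaks (6.46% higher, 0.815% lower). Without day 1 replicate 2 the count was 2.

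Finally, the RefSeq promoter windows of the guidance genes were searched on both strands for 4 motifs: AP-1 (TGANTCA), CRE (TGACGTCA), an ATF-CEBP composite (TGATGCAA) and a SOX motif (AACAAT). RefSeq windows were found for 55 of the 65 genes, 71 windows in all with a median GC content of 64.7%, beside 52.7% for all 32851 windows. AP-1 letters were in 3 of 71 windows (4.23%, beside 7.81% of all), at Sema4c, Sema4d and Sema6b, and SOX letters in 2 (2.82%, beside 10.7%), at Ephb1 and Sema4d. CRE and composite letters were in none of the 71, beside 1.79% and 0.895% of all. The 3 windows with AP-1 letters are shown with the matched letters in capitals. The Sema4d and Sema6b windows lie inside those genes, whose outer starts on the minus strand are at 51793747 and 56140343. The Sema4c window covers that gene's outer start, at 36558349. On day 3, Sema4d RNA was higher, Sema6b RNA was lower, and Sema4c RNA (log2 fold change 0.85 ± 0.36) did not pass.

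Sema4d promoter, GRCm38.p6, chr13:51748761-51749060, minus strand, AP-1 then SOX letters: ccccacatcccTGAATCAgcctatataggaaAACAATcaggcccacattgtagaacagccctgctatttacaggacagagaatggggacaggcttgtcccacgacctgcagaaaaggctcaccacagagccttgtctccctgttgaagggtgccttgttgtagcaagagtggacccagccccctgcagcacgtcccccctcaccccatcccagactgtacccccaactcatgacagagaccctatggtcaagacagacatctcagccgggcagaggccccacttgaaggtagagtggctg
Sema6b promoter, GRCm38.p6, chr17:56133803-56134102, minus strand: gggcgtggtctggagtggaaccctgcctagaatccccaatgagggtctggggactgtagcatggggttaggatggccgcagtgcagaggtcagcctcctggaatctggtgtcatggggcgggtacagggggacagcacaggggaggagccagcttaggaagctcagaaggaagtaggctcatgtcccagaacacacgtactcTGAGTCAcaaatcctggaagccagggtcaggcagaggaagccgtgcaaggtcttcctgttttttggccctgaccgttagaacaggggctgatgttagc
Sema4c promoter, GRCm38.p6, chr1:36558332-36558631, minus strand: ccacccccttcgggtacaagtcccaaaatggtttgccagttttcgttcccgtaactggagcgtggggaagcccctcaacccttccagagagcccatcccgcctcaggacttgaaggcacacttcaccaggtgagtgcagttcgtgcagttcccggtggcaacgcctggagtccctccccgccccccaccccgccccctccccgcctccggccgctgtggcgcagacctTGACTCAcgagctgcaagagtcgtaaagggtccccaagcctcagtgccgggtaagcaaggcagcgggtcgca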

How the data were processed

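Sorted mouse RGCs were profiled by RNA-seq (SMART-Seq v4 kit, per the labels) and by ATAC-seq. For RNA, the submitters' processing notes list the tools edgeR, HTSeq, Picard and STAR and the build mm10. For ATAC, they list DESeq2, ChIPseeker, Subread with featureCounts, bedtools, MACS2, Picard, Bowtie2, SAMtools, Trim Galore and FastQC, and the builds mm10 and GRCm38. Their settings were not stated there.

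Tests started from the deposited counts, whole numbers for each gene and each peak. The authors' comparison tables hold log2 fold changes and adjusted p-values. The deposited footprint tables give each site 1 score per day, and the correlation tables hold a score (a coefficient) per pair. Reads in peaks are given as a fraction, per the file headers. The authors' other deposited values (normalised expression, motif scores, single peak calls) were not used.

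Tests were two-sided quasi-likelihood F tests in edgeR 4.0.16 (R 4.3.3) with TMM scaling, filterByExpr and day as the term, plus the authors' batch for ATAC. One fit held all libraries of an assay, p-values were adjusted by Benjamini and Hochberg over all genes or peaks, and the threshold was 0.05. Standard errors (SE) are the size of the log2 fold change over the root of its F. CPM values use TMM library sizes. A fold against 0 counts uses a floor of 3 counts per library, which covers counting error only. Scripts were tested on simulated counts.

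The planned tests assumed 15 RNA libraries, and 13 were used. The members, lists and tests were chosen with earlier results of these data known. Members named with values per library passed the threshold with at least 2-fold and no overlap on some day at a mean of at least 1 CPM, or had the highest mean CPM of their family. CPM stands in for RPKM there, because exon lengths were not used. Nrp1, Sema4d and the other members given values were named after these were seen. Partner genes named are the 10 with the smallest adjusted p over days 1 to 4, and promoter peaks named are the 5 with the smallest on day 3. Alternatives were DESeq2 1.42.0 (Wald test, or its size factors in edgeR), library size only, a fit of the groups compared alone, a count minimum (mean of 20) or none, the replicate number as a term, sequencing components 1 and 2 or the share of reads in peaks as terms, single batches, no batch term, a lowess curve per library (span 0.3), and leaving out each library. Those on peaks outside promoters and on the peaks of Sema5a, Sema6a and Robo1 were chosen after seeing the data. Promoter sequences are from RefSeq, GRCm38.p6.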

Additional observations from a re-analysis of the deposited data

Results flagged for a closer look

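In the Sema3c peak 17675 bases upstream, day 3 replicate 6 had 5.36 CPM, while the other 5 day 3 libraries had 2.85 to 3.67 CPM. The gap to its nearest neighbour was 0.675 of the group's range, past Dixon's critical value for 6 samples. Of 16 groups tested, 1 was flagged, and chance flags about 1 in 20. Leaving out single libraries kept the day 3 log2 fold change of this peak at 1.12 to 1.36.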

How the results depend on the processing

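The counts of guidance genes called on days 1 to 4 stayed within 1.5 times their values under every alternative other than leaving out a library. Leaving out each library gave 7 to 13 on day 1, 14 to 29 on day 2, 40 to 45 on day 3, 35 to 42 on day 4, 27 to 33 for day 3 against day 1 and 39 to 42 over days 1 to 4. For the 57 partner genes it gave 8 to 12, 14 to 24, 29 to 34 and 22 to 33 on days 1 to 4, and with only the groups compared 6 partner genes were called on day 1 instead of 12. The day 2 minima (14 and 14) came without day 2 replicate 2 and the day 1 minimum of 7 without day 1 replicate 2. Scaling by library size only moved the median log2 fold change of all genes to 0.10 on day 3 and 0.15 on day 4 and that of the guidance genes to -0.50 and -0.54. Of 202 calls of single guidance genes or named partner genes in these comparisons, 152 held under every alternative that gave them a value and 50 were lost under at least 1.

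Accessibility depended more on the choices. Sema3c peaks called on day 3 were 2 instead of 1 in batch 2 alone (2 higher) and with a lowess curve (1 higher, 1 lower). They were 1 to 2 without single libraries. On day 3 against day 1, 1 instead of 0 was called in batch 2 alone, with a lowess curve, with the DESeq2 Wald test and with a term for the share of reads in peaks, and 0 to 1 without single libraries. On day 1 none was called without any single library (0 to 0). Promoter peaks called on day 1 (5) became 0 without a batch term, 43 in batch 2 alone, 8 with DESeq2's size factors, 1 with a lowess curve, 14 with the Wald test, 2 with the replicate block, 1 with the share of reads in peaks, and 0 to 11 without single libraries. Those of day 3 (30) became 6 without a batch term, 50 in batch 2 alone, 1 in batch 1 alone, 16 with the share of reads in peaks, and 24 to 41 without single libraries. Outside promoters, the 51 of day 1 became 0 without a batch term, 147 in batch 2 alone, 13 with a lowess curve, 30 with the replicate block, 4 with the share of reads in peaks, and 2 to 76 without single libraries. The 136 of day 3 became 52 without a batch term, 18 in batch 1 alone, 87 with the share of reads in peaks, and 107 to 153 without single libraries. Calls over all peaks moved as well. Over all peaks, the 11884 called on day 1 became 0 without a batch term and 40817 in batch 2 alone. They became 2879 with a lowess curve and 895 with the share of reads in peaks. The 36123 of day 3 became 14466 without a batch term, 44367 in batch 2 alone and 7162 in batch 1 alone. With the share of reads in peaks they became 21294. The causes were not tested.

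Deviations of same-numbered libraries from their group mean had a median correlation of 0.016 over 22 RNA pairs and 0.085 over 12 ATAC pairs. For differently numbered libraries the medians were -0.0098 over 45 RNA pairs and -0.051 over 24 ATAC pairs. Groups of so few libraries leave it undecided whether the numbers pair samples. With the replicate block, 13, 24, 45 and 41 guidance genes were called on days 1 to 4, 32 for day 3 against day 1 and 41 over days 1 to 4, and 29 promoter peaks on day 3.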
